A study of Mus musculus with 11 samples.

Results

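The extracellular matrix genes of the lung were followed here across 4 groups of arrays from wild-type mice and from mice lacking 2 repressors of translation. A list of 60 genes was used, comprising collagens, elastic fibre proteins, laminins, proteoglycans, matricellular glycoproteins and the enzymes that cut the matrix with their inhibitors. For each gene the probe set of highest mean stood for it. Of the 60 genes, 55 had a probe set and 47 of these were tested, against 14351 genes with a probe set and 8085 genes tested on the arrays as a whole. A gene was tested where its log2 value was 5 or more on at least 2 of the 11 arrays. No probe set was matched to Col6a3, Lama3, Lama5, Hspg2 (perlecan) or Vcan (versican). The 8 genes below the filter were Col8a1, Col15a1, Fbln2, Loxl2, Lama4, Nid2, Lum and Tnc.

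The animals were Balb/c mice, either wild type or carrying both the 4ebp1-/- and 4ebp2-/- alleles, which remove the eIF4E-binding proteins 4E-BP1 and 4E-BP2 from the whole animal. Wild-type mice were bought from a commercial breeder and the double knockouts came from another laboratory, so genotype and source of the animals cannot be told apart. Both genotypes received the AIN-93M purified diet from 5 weeks of age, and the labels used here give no age at collection. Total RNA was measured on 3 wild-type and 3 knockout arrays, and polysomal RNA on 2 wild-type and 3 knockout arrays. Polysomal RNA was the pool of gradient fractions 7 to 10 out of 10, in which a transcript carries 3 or more ribosomes. In each case 100 ng of RNA was labelled after 2 cycles of amplification. Whether every array represents a separate mouse is not stated in the labels. The p-values therefore cover only the spread among these arrays, part of which may be technical.

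The matrix is the scaffold outside the cells. Fibroblasts and smooth muscle cells secrete the fibrillar collagens, elastin and small proteoglycans, which give the lung its tensile strength and recoil, while endothelial and epithelial cells contribute type IV collagen and laminins to the basement membranes of the gas-exchange surface. Lysyl oxidases crosslink collagen and elastin, and metalloproteinases and their tissue inhibitors (TIMPs) set the turnover. The 4E-BPs bind the cap-binding factor eIF4E and keep it from recruiting the ribosome, so a comparison of polysomal with total RNA asks which messages changed in their ribosome loading and which changed in amount.

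As a check of the labels, the targeted gene Eif4ebp2 differed between knockout and wild type by -1.90 log2 units in total RNA (SE 0.25, Benjamini-Hochberg adjusted p = 0.0016 by limma), while the polysomal difference was -2.07 (SE 0.28, adjusted p = 0.0025 by limma). The other targeted gene, Eif4ebp1, was less reduced. Its differences were -0.40 on the total arrays (SE 0.11, limma, adjusted p = 0.033) and -0.67 on the polysomal ones (SE 0.13, adjusted p = 0.0096). The sources used here do not say whether either probe set lies in the deleted part of its gene. Array medians lay between 4.96 and 5.04 log2. Probe sets too dim to test had medians of 2.30 to 2.49 log2, which is used here as the floor of the arrays. Some probe sets held nearly constant values well above it, such as Col14a1 at 7.32 to 7.40 on all arrays. Whether such flat values are signal was not tested. One array stood apart for the matrix genes. Knockout polysomal replicate 1 gave the lowest value of its group for 42 of 47 matrix genes (89.4%), against 37.8% of all tested genes. Its matrix genes lay a median of 0.42 log2 units below the mean of the other two knockout polysomal arrays, while the median over all genes was -0.01. On the same array the smooth muscle markers lay at -0.26 (5 of 5 lowest of the group), the heart muscle markers at -0.52 (7 of 8), the fibroblast markers at -0.22 (8 of 12) and the alveolar type 2 markers at -0.02 (3 of 8). The endothelial markers lay at -0.14 (10 of 13), the mesothelial markers at -0.26 (4 of 6) and the macrophage markers at -0.2 (8 of 10). The alveolar type 1 markers lay at 0.04 (2 of 7) and the 1 cartilage marker at -0.04. Between the 2 wild-type polysomal arrays, replicate 1 was the higher for 38 of 47 matrix genes, by a median of 0.21, against 49.9% of all genes. Results in polysomal RNA are therefore given below with the calls, and the larger shifts in value, that depend on one of these arrays.

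In total RNA, knockout lungs had more message for a broad group of matrix genes, among them the microfibril proteins Mfap4 and Mfap5, the crosslinking enzyme Loxl1, the collagens Col3a1 and Col4a2, and the growth factor binding protein Ltbp4. Of the 47 genes tested, 16 rose, 1 fell and 30 did not pass the threshold of an adjusted p of 0.05. Over all 8085 genes, 17.2% were called higher and 5.97% lower in this comparison. The median difference was 0.48 log2 units over the matrix genes and 0.09 over all genes tested. The gene that fell was Fmod (fibromodulin). The mean log2 value of the 47 genes was 8.78 to 8.85 on the wild-type total arrays and 9.20 to 9.29 on the knockout total arrays. These ranges did not overlap. The medians of all tested probe sets did not overlap either, at 8.33 to 8.42 in wild-type and 8.47 to 8.51 in knockout total RNA. In polysomal RNA the ranges of the 47 genes overlapped, at 10.10 to 10.29 in wild type and 10.07 to 10.53 in knockout.

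In polysomal RNA, the knockout carried more message for elastin (Eln), Col1a1, Col5a2, periostin (Postn), Mmp14, Mgp and Loxl1, and less for Fmod, Ltbp2, Timp3 and decorin (Dcn). These were 7 genes that rose and 4 that fell among 47, with 8.36% of all genes called higher and 6.77% lower. The median difference was 0.10 over the matrix genes and -0.01 over all genes. Loxl1, Mgp and Mmp14 rose and Fmod fell in both kinds of RNA. The polysomal counts depended on single arrays. Without wild-type polysomal replicate 2, 3 genes were higher and 2 lower. Without knockout polysomal replicate 1, 10 were higher, with Fbn1, Lox and Nid1 added, and 3 were lower. Without wild-type polysomal replicate 1, 9 were higher, with Col3a1, Mfap4 and Mfap5 added and Col1a1 lost, and 1 was lower. Eln, Mmp14 and Fmod passed whichever array was left out. Leaving out either wild-type polysomal array leaves 1, which the fit then takes to vary like the arrays of the other groups.

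**Figure D1:**
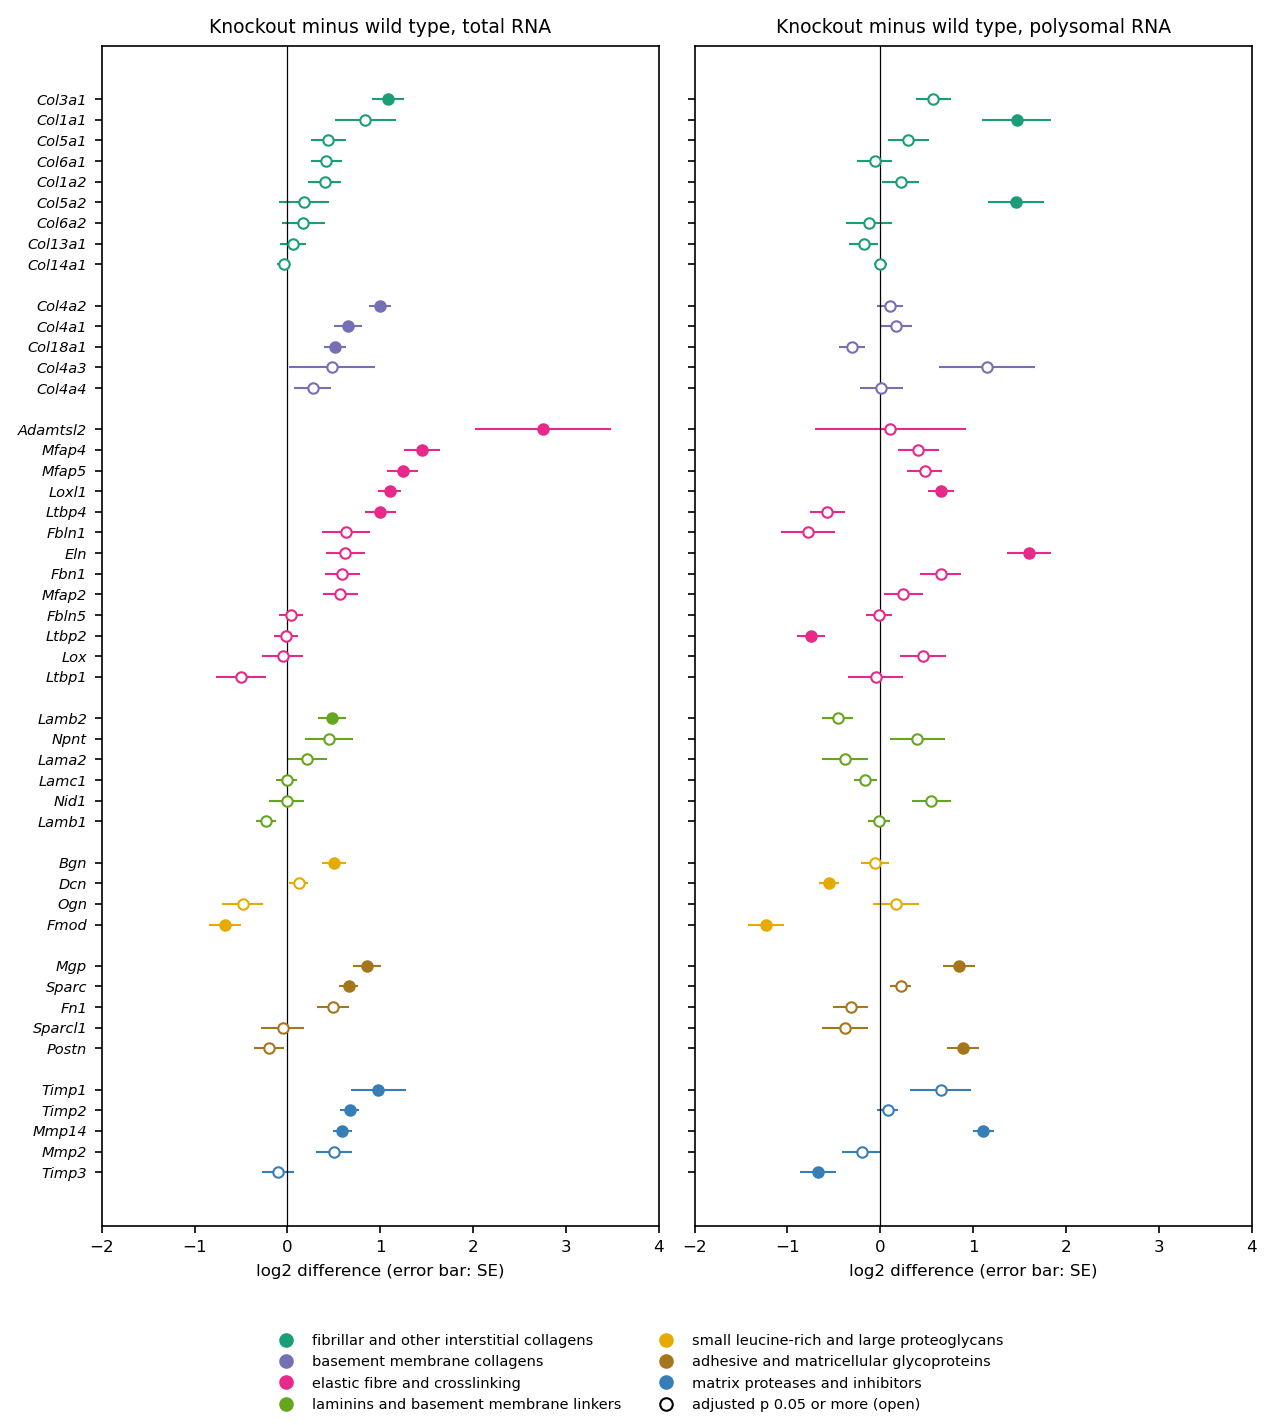
Knockout minus wild-type difference (log2, horizontal axis) of the 47 tested matrix genes in total RNA (left) and polysomal RNA (right), with the SE of the fit as error bars, grouped by class. Filled points passed an adjusted p of 0.05: 16 lie to the right of 0 in total RNA and 7 in polysomal RNA.

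Among the fibrillar and other interstitial collagens, 9 genes were tested. In total RNA 1 rose, in polysomal RNA 2 rose, and none fell in either. These were 11.1% and 22.2% of the class, against 17.2% and 8.36% of all genes. Col3a1 encodes type III collagen, the fine fibrillar collagen of blood vessels and alveolar walls. It measured 13.12, 12.62 and 13.07 log2 on the wild-type total arrays and 13.87, 14.08 and 14.08 on the knockout total arrays. All 3 knockout arrays lay above all wild-type arrays, and the rise was 1.08 (SE 0.17, limma adjusted p = 0.0032), or 2.11-fold. In polysomal RNA Col3a1 stood at 14.63 and 14.09 in wild type and at 14.78, 15.02 and 15 in knockout, a difference of 0.57 that did not pass (SE 0.19, adjusted p = 0.074). Without wild-type polysomal replicate 1 the difference was 0.84 and passed (adjusted p = 0.042), and without replicate 2 it was 0.30.

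Col1a1 and Col1a2 encode the α chains of type I collagen, the main tension-bearing fibril. Col1a1 was dim for so abundant a protein, at 6.04, 5.73 and 5.90 log2 on the wild-type total arrays and 6.19, 7.41 and 6.60 on the knockout total arrays. Its polysomal values were 6.27 and 7.29 in wild type and 7.92, 8.26 and 8.57 in knockout. The groups did not overlap, and the polysomal rise was 1.47 (SE 0.37, limma adjusted p = 0.029), but the wild-type arrays differed from each other by more than the gap between the groups, and the call was lost without any 1 of 3 arrays. The rise was 0.96 without wild-type polysomal replicate 1 and 1.98 without replicate 2. The total RNA difference of 0.84 did not pass (SE 0.33, adjusted p = 0.097). Col1a2, its partner chain, was brighter, at 11.52 to 11.83 on the wild-type total arrays, and did not pass in total RNA (0.40, SE 0.18, adjusted p = 0.12) or in polysomal RNA (0.22, SE 0.20, adjusted p = 0.50).

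Col5a2, a chain of the type V collagen that nucleates type I fibrils, was the 1 gene of this class that was lower in polysomal than in total RNA in wild type (-1.21), while the knockout difference was 0.07. Its total values overlapped between genotypes, from 10.00 to 10.48 in wild type and from 10.24 to 10.68 in knockout. On the polysomal arrays it measured 9.32 and 8.78 in wild type and 9.88, 10.89 and 10.77 in knockout. The polysomal rise was 1.46 (SE 0.30, limma adjusted p = 0.012). It ran from 1.19 to 1.78 when 1 array was left out, and it no longer passed when wild-type polysomal replicate 2 was dropped. Col5a1, the other chain measured, did not pass in either kind of RNA (0.44 in total and 0.30 in polysomal RNA). Col6a1, Col6a2 and Col13a1 differed between genotypes by 0.06 to 0.42 in total RNA and by -0.18 to -0.06 in polysomal RNA, and none passed. Col14a1 spanned only 7.32 to 7.40 log2 over all 11 arrays.

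The basement membrane collagens rose in total RNA in 3 of 5 tested genes, against 17.2% of all genes, and none passed in polysomal RNA. Col4a1 and Col4a2 encode the 2 chains of the common type IV collagen network beneath endothelium and epithelium. Col4a1 measured 12.23, 12.15 and 12.39 log2 in wild-type total RNA and 12.99, 12.84 and 12.89 in knockout total RNA, a rise of 0.65 (SE 0.15, limma adjusted p = 0.014). Col4a2 measured 11.20, 11.24 and 11.12 against 12.18, 12.16 and 12.21, a rise of 1.0 (SE 0.12, adjusted p = 0.0010). For both genes every knockout total array was above every wild-type one. In polysomal RNA both genotypes overlapped, with Col4a2 at 13.20 and 13.10 in wild type and 12.95, 13.39 and 13.41 in knockout, and the differences were 0.17 for Col4a1 and 0.10 for Col4a2. Col18a1, the precursor of endostatin, rose by 0.51 in total RNA (SE 0.12, adjusted p = 0.017) and stood at -0.30 in polysomal RNA (SE 0.14, adjusted p = 0.18). Col4a3 and Col4a4, chains of the mature alveolar and glomerular network, did not pass. Col4a3 lay close to the filter, with wild-type total values of 4.31, 4.28 and 2.76 and knockout polysomal values of 5.17, 6.21 and 6.53.

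Col4a1 and Col4a2 are neighbours on chromosome 8 and are read outward from a shared start region, which is shown because both messages rose together in total RNA. The RefSeq starts of the pair overlap by 22 bases on assembly GRCm38.p6, at chr8:11312805-11312826, printed here on the strand of Col4a2 with capitals for the bases that lie in both transcripts.
Col4a1 and Col4a2: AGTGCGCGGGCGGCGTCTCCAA
Other neighbouring pairs among the listed genes were Col3a1 with Col5a2 and Col4a3 with Col4a4 on chromosome 1, and Col6a1 with Col6a2 and Dcn with Lum on chromosome 10. The neighbours Col3a1 and Col5a2 did not share a call, since Col3a1 passed in total RNA and Col5a2 in polysomal RNA.

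The elastic fibre and crosslinking class held the largest matrix difference in each comparison, Adamtsl2 in total RNA and Eln in polysomal RNA. Of 13 genes tested, 5 rose in total RNA, and in polysomal RNA 2 rose and 1 fell. These were 38.5%, 15.4% and 7.69% of the class, against 17.2%, 8.36% and 6.77% of all genes. Eln encodes elastin, the core of the elastic fibre. Its total values were 7.35, 7.12 and 7.92 log2 in wild type and 7.96, 7.99 and 8.28 in knockout, a difference of 0.62 that did not pass (SE 0.21, limma adjusted p = 0.064). In polysomal RNA Eln stood at 7.99 and 7.77 in wild type and at 9.33, 9.82 and 9.31 in knockout. All knockout arrays lay well above both wild-type arrays, and the rise was 1.60 (SE 0.24, adjusted p = 0.0032), or 3.04-fold.

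The microfibril genes surround elastin. Fbn1, which encodes fibrillin-1, the main microfibril protein, measured 9.32, 9.19 and 9.27 log2 in wild-type total RNA and 9.85, 9.84 and 9.88 in knockout total RNA. These groups did not overlap, but the difference of 0.59 did not pass (SE 0.19, limma adjusted p = 0.054). Its polysomal values, 10.09 and 9.84 in wild type and 10.08, 10.97 and 10.78 in knockout, overlapped through knockout replicate 1, and the difference was 0.65 (SE 0.22, adjusted p = 0.073), or 0.91 without that array, where it passed (adjusted p = 0.0044). Mfap4, a glycoprotein of elastic microfibrils, measured 10.77, 10.43 and 10.65 in wild-type total RNA and 12.04, 12.15 and 12.02 in knockout total RNA. That rise of 1.45 (SE 0.19, adjusted p = 0.0016) was 2.73-fold. In polysomal RNA Mfap4 stood at 13.82 and 13.03 in wild type and 13.60, 13.86 and 14.05 in knockout, with overlapping groups and a difference of 0.41 (SE 0.22, adjusted p = 0.24). That difference was 0.81 without wild-type polysomal replicate 1, where it passed (adjusted p = 0.037), and 0.02 without replicate 2. Mfap5, another microfibril component, lay between 5.21 and 5.50 in wild-type total RNA and between 6.50 and 6.71 in knockout total RNA. It rose by 1.24 (SE 0.17, limma adjusted p = 0.0019), and its polysomal difference was 0.48 (adjusted p = 0.13), or 0.79 without wild-type polysomal replicate 1, where it passed (adjusted p = 0.038), and 0.16 without replicate 2. Mfap2 did not pass in either.

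The latent TGF-beta binding proteins, a family of microfibril-associated proteins, did not move together. Ltbp4 measured 6.48, 6.26 and 6.26 log2 in wild-type total RNA and 7.02, 7.52 and 7.48 in knockout total RNA, a rise of 1.0 (SE 0.17, limma adjusted p = 0.0043). In polysomal RNA it stood at 12.65 and 12.21 in wild type and 11.62, 11.95 and 12.01 in knockout, below the wild-type arrays on every knockout array, with a difference of -0.57 that did not pass (SE 0.19, adjusted p = 0.078). Ltbp2 overlapped in total RNA (-0.02, adjusted p = 0.92) and fell in polysomal RNA, from 8.74 and 8.46 in wild type to 7.61, 8.06 and 7.89 in knockout. The fall by 0.75 (SE 0.15, adjusted p = 0.010) was lost without wild-type polysomal replicate 1. Ltbp1 did not pass in either, at -0.50 and -0.05.

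Lox and Loxl1 encode lysyl oxidases, the enzymes that crosslink collagen and elastin. Loxl1 measured 9.69, 9.69 and 9.70 log2 in wild-type total RNA and 10.74, 10.75 and 10.89 in knockout total RNA, with polysomal values of 10.54 and 10.28 in wild type and 10.79, 11.18 and 11.19 in knockout. Knockout arrays lay above wild-type arrays in both kinds of RNA. The total RNA rise was 1.10 (SE 0.12, limma adjusted p = 0.00071), and the polysomal rise was 0.65 (SE 0.14, adjusted p = 0.014), the latter lost without wild-type polysomal replicate 2. Lox did not pass, at -0.05 in total and 0.46 in polysomal RNA. Adamtsl2, a microfibril-associated protein, gave the largest total RNA difference of any matrix gene, 2.75 (SE 0.73, adjusted p = 0.024). Its wild-type total values were 5.09, 5.62 and 2.34, the last at the floor of the arrays, against 7.41, 7.08 and 6.82 in knockout, so its size is not well measured. It ran from 1.75 to 3.39 when 1 array was left out, and the call was lost without either of 2 knockout total arrays. The fibulins Fbln1 and Fbln5 did not pass in either kind of RNA.

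Of the 6 laminins and basement membrane linkers tested, 1 rose in total RNA and none passed in polysomal RNA. The count in total RNA was near the share of all genes called higher there, 17.2%. Lamb2, the laminin β2 chain, measured 8.63, 8.52 and 8.56 log2 in wild-type total RNA and 8.89, 9.07 and 9.19 in knockout total RNA. The rise of 0.48 (SE 0.15, limma adjusted p = 0.043) was close to the threshold and was lost without any 1 of 9 arrays. On the polysomal arrays Lamb2 stood at 11.90 and 11.90 in wild type and lower, at 11.12, 11.76 and 11.44, in knockout, a difference of -0.46 (SE 0.17, adjusted p = 0.093). Lama2, Lamb1, Lamc1, Nid1 and Npnt did not pass in either comparison. Nid1, the linker nidogen-1, held 6.14 to 6.18 on all 6 total arrays, and its polysomal values were 6.51 and 6.86 in wild type and 6.74, 7.42 and 7.54 in knockout.

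The small leucine-rich proteoglycans, which coat collagen fibrils and limit their width, were the 1 class with a negative median in both comparisons, -0.18 in total and -0.30 in polysomal RNA over 4 tested genes. Fmod (fibromodulin) measured 8.62, 8.61 and 9.14 log2 in wild-type total RNA and 8.05, 8.11 and 8.21 in knockout total RNA. In polysomal RNA it stood at 9.62 and 9.44 in wild type and 8.01, 8.37 and 8.52 in knockout. It was lower on every knockout array. The total RNA difference was -0.67 (SE 0.17, limma adjusted p = 0.021) and was lost without either of 2 knockout arrays. In polysomes the difference was -1.23 (SE 0.19, adjusted p = 0.0035). Dcn (decorin) overlapped in total RNA, at 10.92, 10.94 and 10.70 in wild type and 11.13, 10.91 and 10.89 in knockout. Its polysomal values were 12.64 and 12.65 in wild type and 12.02, 12.14 and 12.14 in knockout, a fall by 0.55 (SE 0.11, adjusted p = 0.012). The fall was lost when either wild-type polysomal array was left out, which leaves 1 wild-type array. Bgn (biglycan), the closest relative of decorin, rose by 0.50 in total RNA (SE 0.13, adjusted p = 0.022), lost without any of 3 arrays, and stood at -0.06 in polysomal RNA. Ogn (osteoglycin) did not pass.

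Of the 5 adhesive and matricellular glycoproteins tested, 2 rose in total RNA and 2 in polysomal RNA. The shares of all genes called higher were 17.2% and 8.36%. Sparc, a collagen-binding matricellular protein, measured 12.38, 12.16 and 12.37 log2 in wild-type total RNA and 12.97, 13.02 and 12.91 in knockout total RNA, a rise of 0.66 (SE 0.10, limma adjusted p = 0.0026). Its polysomal values of 14.26 and 14.11 in wild type and 14.25, 14.44 and 14.50 in knockout overlapped (0.22, adjusted p = 0.23). Mgp (matrix Gla protein), an inhibitor of calcification, rose in both kinds of RNA, by 0.86 in total (SE 0.15, adjusted p = 0.0051) and 0.85 in polysomal (SE 0.17, adjusted p = 0.012). Its total values were 11.98 to 12.19 in wild type and 12.93 to 12.97 in knockout. On the polysomal arrays it stood at 13.67 and 13.01 in wild type and at 14.22, 14.33 and 14.04 in knockout, so the wild-type arrays differed. The polysomal rise was 1.18 without wild-type polysomal replicate 1, and 0.52 without replicate 2, where it no longer passed.

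Postn (periostin), a matricellular partner of collagen and of integrins, overlapped in total RNA, at 12.14, 11.91 and 11.98 log2 in wild type and 11.69, 11.68 and 12.05 in knockout. In polysomal RNA it stood at 11.77 and 11.55 in wild type and 12.24, 12.77 and 12.62 in knockout. The polysomal rise was 0.89 (SE 0.17, limma adjusted p = 0.010), lost without wild-type polysomal replicate 2. Fn1 (fibronectin) measured 11.16, 11.19 and 10.68 in wild-type total RNA and 11.53, 11.41 and 11.58 in knockout total RNA, a difference of 0.49 that did not pass (SE 0.17, adjusted p = 0.066). Its polysomal values ran the other way, 12.75 and 12.62 in wild type and 12.03, 12.48 and 12.59 in knockout, at -0.32 (SE 0.19, adjusted p = 0.31). Sparcl1 did not pass in either.

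All 5 matrix proteases and inhibitors were tested. In total RNA 3 rose, and in polysomal RNA 1 rose and 1 fell. Among all genes, 17.2% rose in total RNA, and 8.36% rose and 6.77% fell in polysomal RNA. Mmp14, the membrane-type metalloproteinase that cuts collagen and activates pro-MMP2, measured 4.33, 4.33 and 4.62 log2 in wild-type total RNA and 5.04, 4.94 and 5.07 in knockout total RNA. Its polysomal values were 5.47 and 5.36 in wild type and 6.60, 6.42 and 6.55 in knockout, and the 4 groups did not overlap at all. The total RNA rise was 0.59 (SE 0.10, limma adjusted p = 0.0042). The polysomal rise was 1.11 (SE 0.11, adjusted p = 0.00080), or 2.16-fold. Mmp2, its gelatinase substrate, did not pass, at 0.50 in total and -0.20 in polysomal RNA.

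The 3 inhibitors differed. Timp2 lay between 10.69 and 10.90 log2 in wild-type total RNA and between 11.36 and 11.55 in knockout total RNA. It rose by 0.67 (SE 0.10, limma adjusted p = 0.0020), and its polysomal difference was 0.08. Timp1 rose by 0.98 in total RNA (SE 0.30, adjusted p = 0.041), with wild-type values of 5.54, 5.79 and 6.52 and knockout values of 6.74, 6.82 and 7.23. That call was lost without any 1 of 7 arrays. Timp3, the inhibitor that stays bound to the matrix, measured 10.62, 10.78 and 10.12 in wild-type total RNA and 10.43, 10.35 and 10.44 in knockout total RNA, with overlap and a difference of -0.10 (adjusted p = 0.72). In polysomal RNA it stood at 11.26 and 11.56 in wild type and 10.58, 10.81 and 10.85 in knockout. The fall by 0.67 (SE 0.19, adjusted p = 0.039) was lost without any 1 of 9 arrays.

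**Figure D2:**
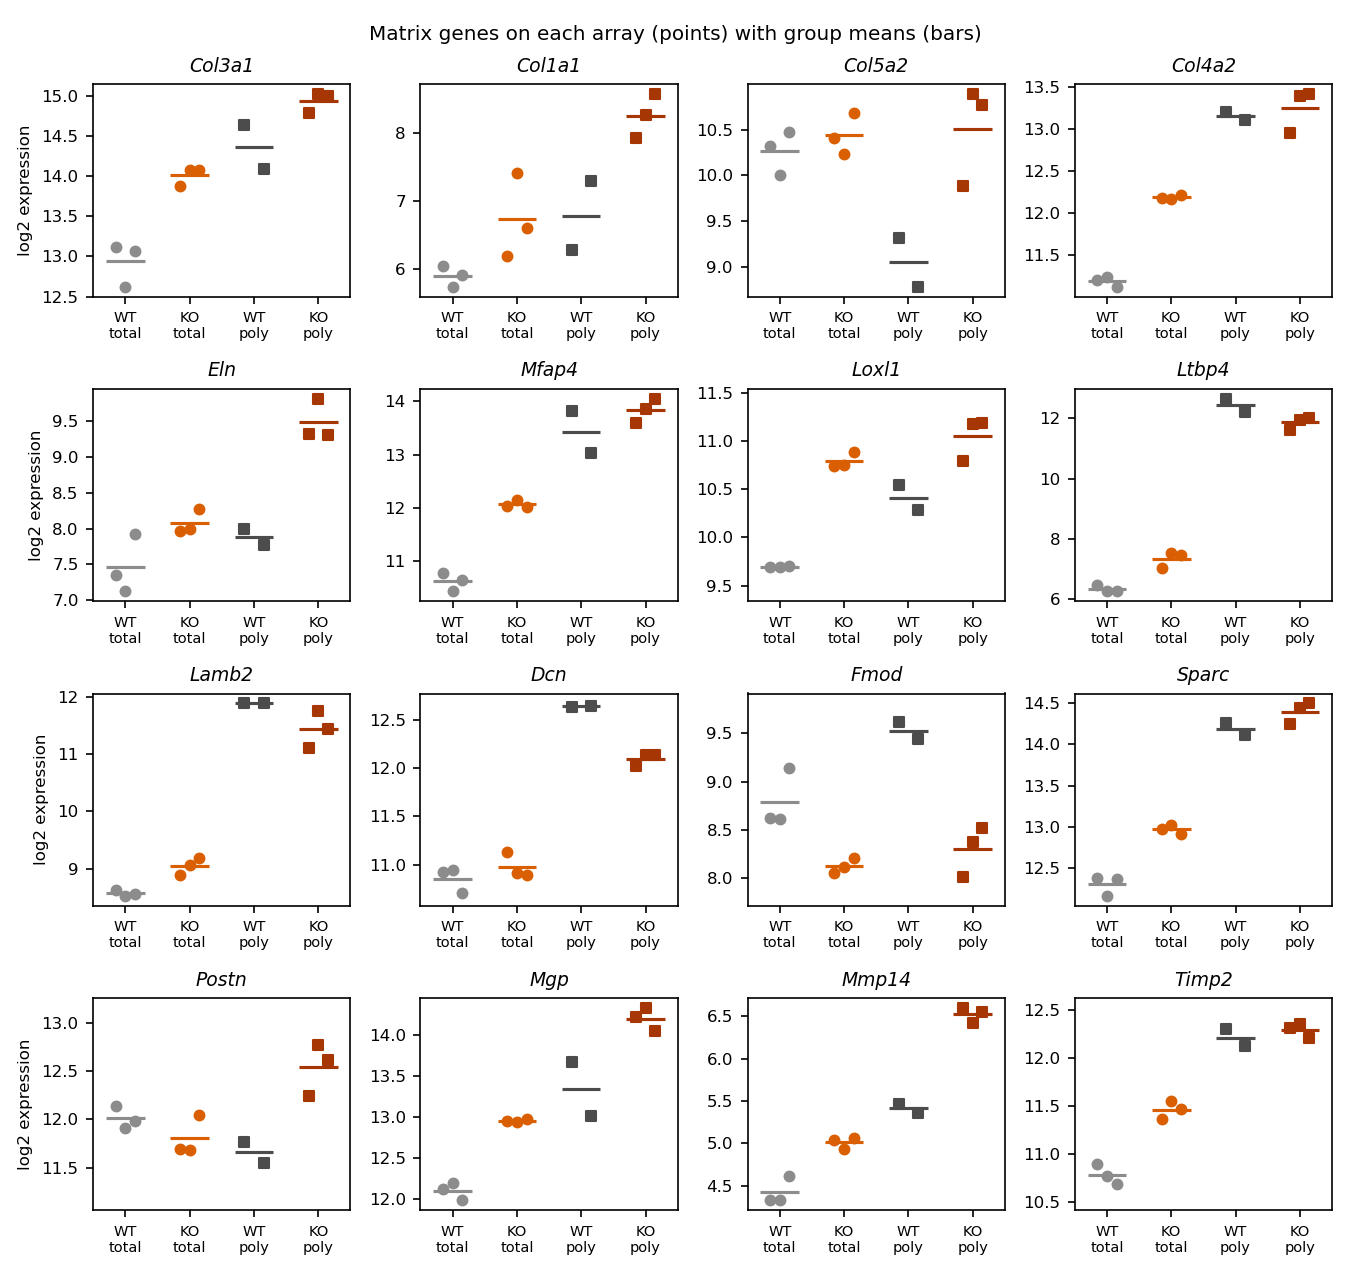
Log2 expression (vertical axes, not starting at 0) of 16 matrix genes on each of the 11 arrays, as points, with the group mean as a bar, for wild type (WT) and knockout (KO) in total and polysomal (poly) RNA. Mfap4, Loxl1 and Timp2 separate the genotypes in total RNA, Eln and Postn separate them in polysomal RNA, and Mmp14 separates all 4 groups.

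Among the genes below the filter, none had a value of 5 or more on more than 1 array. Lum (lumican), a relative of fibromodulin, came nearest, at 4.32 to 5.30 log2 over the 11 arrays. Fbln2 lay at 1.95 to 2.02 on the total arrays, at the floor, and at 3.19 to 4.83 on the polysomal arrays. Tnc (tenascin-C) ranged from 2.19 to 2.94 in total RNA, with polysomal values between 3.71 and 4.77. These genes were not tested, and a dim probe set is no measure of absence. Just inside the filter, Col4a3, Mmp14 and Npnt had the lowest means over all arrays, of 4.70, 5.34 and 5.94 log2.

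The matrix genes differed more between polysomal and total RNA than between genotypes. In wild type, 35 of 47 were higher in polysomal RNA and 3 were lower, with 44.5% of all genes called higher and 27.9% lower. In knockout, 33 were higher and none lower by limma (none lower at an unadjusted p under 0.05 either), with 39.5% and 25.7% of all genes called. The median difference was 1.21 in wild type and 1.0 in knockout, against 0.22 and 0.13 over all genes. Fbln1 and Col4a3 reached log2 5 on polysomal arrays alone. Among the 45 matrix genes that reached it on at least 2 arrays of each kind of RNA, a restriction chosen after the data were seen, 34 were higher and 3 lower in wild type, and 31 higher and 0 lower in knockout. Over the 7556 genes that did so, 44.3% were higher and 27.4% lower in wild type, and 39.1% and 25.2% in knockout. The same amount of RNA was labelled for every array, so these differences are relative to the other messages on the array and are not a share of each message on ribosomes. Scaling the arrays by quantiles moved the median of all probe sets in wild type from 0.00 to -0.13, and 31 matrix genes were then higher and 4 lower.

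The largest single polysomal excesses were those of 4 elastic fibre genes, although the median of their class in wild type was 0.81, the lowest of all the classes, against 1.03 to 1.67 in the others. Ltbp4 lay between 6.26 and 6.48 log2 on the wild-type total arrays and at 12.65 and 12.21 on the wild-type polysomal arrays, a difference of 6.10 (SE 0.19, limma adjusted p = 2.3e-08). In knockout its difference was 4.53 (SE 0.17, adjusted p = 9e-08). Fbln1, a fibulin of elastic fibres and basement membranes, had total values near the floor, 3.86, 4.01 and 3.24 in wild type and 4.39, 3.95 and 4.66 in knockout. Its polysomal values were 9.59 and 9.17 in wild type and 8.32, 8.97 and 8.52 in knockout, which puts the differences at 5.68 and 4.27. Fbln1 passed the filter through its polysomal arrays alone, so a polysomal excess was built into its selection and these values are a description. Next in wild type were Adamtsl2 at 4.78, Mfap2 at 4.09, Lamb2 at 3.33 and Mfap4 at 2.81. The Adamtsl2 value ran from 3.77 to 5.41 when 1 array was left out. Mfap2 held 6.95 to 6.96 on the wild-type total arrays. Among the genes bright in both kinds of RNA, 4 of 45 matrix genes lay in the top 5% by the wild-type difference and 24 in the top 25%, and 3 lay in the bottom 25%.

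Outside the elastic fibre class, the highest wild-type excess was that of Lamb2. Among the interstitial collagens the excess was led in wild type by Col1a2 at 1.85, Col13a1 at 1.65 and Col6a1 at 1.63, and among the basement membrane collagens by Col4a2 at 1.97. Of the proteoglycans Dcn (1.79) and Bgn (1.56) were higher in wild-type polysomal RNA, and of the glycoproteins Sparc (1.88), Sparcl1 (1.86) and Fn1 (1.67). All 5 proteases and inhibitors passed, led by Mmp2 at 2.11. The genes lower in wild-type polysomal RNA were Col5a2 (-1.21, SE 0.30, limma adjusted p = 0.0041), Ogn (-0.71, SE 0.25, adjusted p = 0.026) and Lox (-0.62, SE 0.25, adjusted p = 0.044). The Ogn and Lox calls were lost without single arrays, and Col5a2 kept its call. Col14a1, Col4a4, Col5a1, Lamb1 and Ltbp1 passed in neither genotype. Col5a1 stood at 0.15 in wild type beside -1.21 for its partner chain Col5a2, and Lamb1 at -0.17 beside 3.33 for Lamb2, a difference between chains that was not tested.

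**Figure D3:**
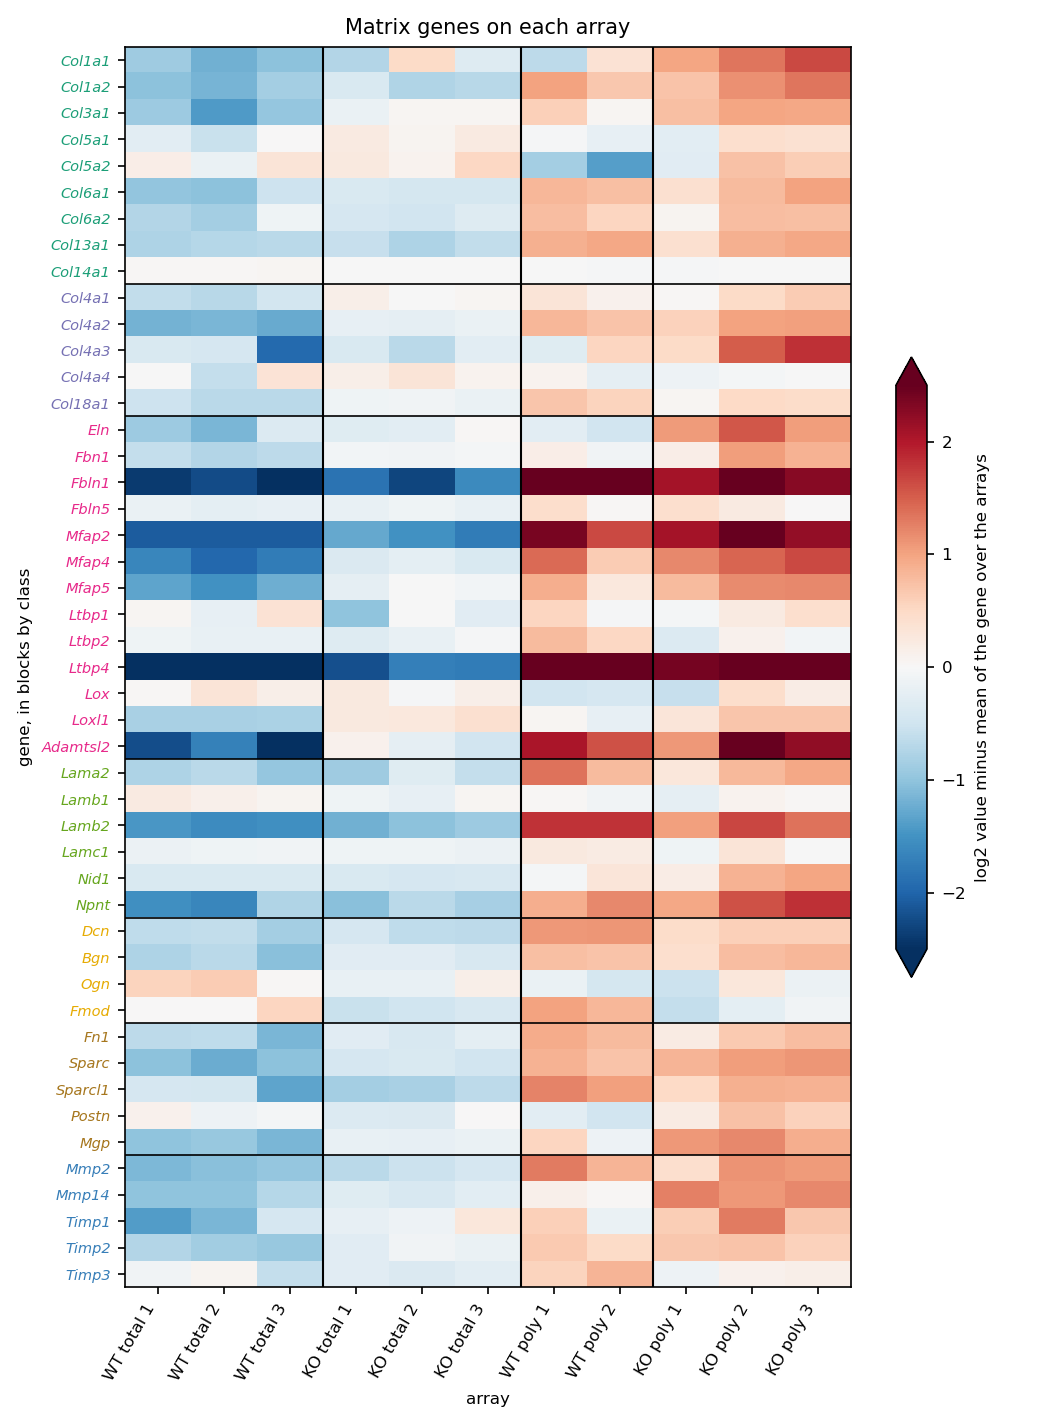
Deviation of each tested matrix gene from its own mean over the 11 arrays (log2, colour, red above and blue below, saturating at the ends of the scale), with genes in rows by class and arrays in columns by group. Most rows run from blue on the wild-type total arrays to red on the polysomal arrays, and knockout polysomal replicate 1 (KO poly 1) is paler than the other two knockout polysomal arrays in most rows.

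The polysomal excess was smaller in knockout than in wild type over the genes as a whole. Across all 8085 genes, a line of the knockout on the wild-type difference had a slope of 0.684 (1.258 with the axes exchanged), and across the 47 matrix genes 0.632. These are descriptions across genes, which are not independent replicates. The matrix genes were therefore also placed against the all-gene line. Their distance from it had a median of 0.09, against -0.01 over all genes, whose distances had an SD of 0.409, and 28 matrix genes lay above it and 19 below. Above the 95th percentile of all genes (0.686) were 9 matrix genes, namely Eln (1.13), Col4a3 (1.01), Postn (0.99), Mfap2 (0.98), Col1a1 (0.92), Col5a2 (0.91), Mmp14 (0.84), Nid1 (0.73) and Npnt (0.71). Of these, Col4a3 had passed the filter through polysomal arrays alone, so its place is a description. Mfap2 and Nid1 were nearly constant on the wild-type total arrays, at 6.95 to 6.96 and 6.17 to 6.18. Adamtsl2 (-1.13) was the 1 matrix gene below the 5th percentile (-0.632). Its value on wild-type total replicate 3 was 2.34, at the floor. The wild-type excess of Adamtsl2 ran from 3.77 to 5.41 when 1 array was left out. Its place therefore rests in part on that value and is a description.

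**Figure D4:**
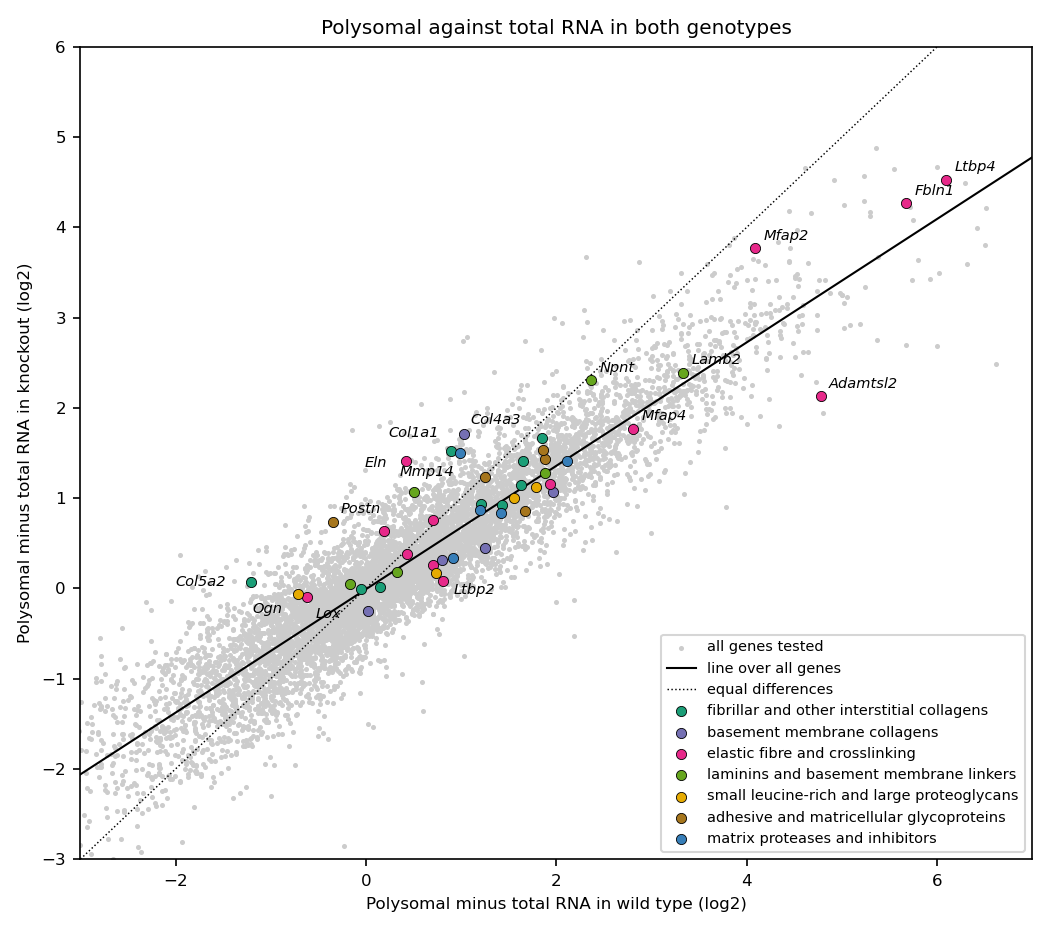
Polysomal minus total RNA (log2) in knockout (vertical) against wild type (horizontal) for all tested genes (grey) and the 47 matrix genes (coloured by class). The axes leave out 91 of the 8085 genes and no matrix gene. The solid line has the slope of 0.684, and Eln, Postn, Col1a1 and Mmp14 lie above it while Ltbp4 and Fbln1 lie near its upper end.

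The test of whether genotype acted differently in the 2 kinds of RNA is the interaction, the polysomal difference between genotypes minus the total one. It was positive and passed for 3 of 47 matrix genes and negative and passed for 10, with 8.06% and 14.2% of all genes called. The median was -0.33 over the matrix genes and -0.13 over all genes. The 3 positive genes were Col5a2 (1.28, SE 0.40, limma adjusted p = 0.046), Postn (1.09, SE 0.23, adjusted p = 0.013) and Mmp14 (0.52, SE 0.15, adjusted p = 0.039). For Eln the value was 0.99 and lay at the threshold without passing (SE 0.32, adjusted p = 0.051). It passed with an intensity trend, with a stricter filter on brightness, with the set letter of the labels as either kind of block, and without wild-type total replicate 2. For Col1a1 it was 0.63 (SE 0.50, adjusted p = 0.40), so its calls in polysomal and not in total RNA do not show a difference between the 2.

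The 10 negative genes were Ltbp4 (-1.57), Fbln1 (-1.40), Mfap4 (-1.04), Lamb2 (-0.94), Col4a2 (-0.90), Col18a1 (-0.81), Fn1 (-0.81), Ltbp2 (-0.73), Dcn (-0.67) and Timp2 (-0.59). Of these, 6 had risen in total RNA, namely Col18a1, Col4a2, Lamb2, Ltbp4, Mfap4 and Timp2, and Dcn and Ltbp2 had fallen in polysomal RNA. All 10 were among the genes higher in polysomal than in total RNA in wild type. The interaction shares arrays with both genotype comparisons, so these overlaps are counts and no separate evidence. Leaving out 1 array moved the counts from 0 to 4 positive and from 4 to 10 negative genes, and Ltbp4, Col4a2 and Dcn passed whichever array was left out. The call was lost without any 1 of 9 arrays for Col5a2 and Fn1, of 8 for Mmp14, of 7 for Mfap4, of 5 for Fbln1 and of 4 for Ltbp2. The Mfap4 value ran from -1.43 to -0.64. Without knockout polysomal replicate 1 there were 4 positive genes, with Lox and Nid1 added and Mmp14 lost, and 7 negative ones. No positive gene passed without wild-type polysomal replicate 2, and 4 negative ones passed without wild-type polysomal replicate 1.

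Transcript starts were read because messages that begin with a C followed by a run of pyrimidines (C, T) are a class whose translation is known to follow the mTOR and 4E-BP pathway. The RefSeq table of GRCm38.p6 held a window of 250 bases before to 50 after the start for 40 of the 60 matrix genes. A start of C followed by at least 4 pyrimidines, read on the strand of the gene at any of its listed starts, was found in 4 of these 40 (10.0%) and in 3.01% of 27025 genes. The 4 are shown from 40 bases before the start, with the first 10 transcribed bases in capitals. In the order given they lie at chr10:76726035-76726084 on the minus strand, chr12:101819110-101819159 on the minus strand, chr10:27616933-27616982 on the minus strand and chr12:31265253-31265302 on the plus strand.
Col6a1: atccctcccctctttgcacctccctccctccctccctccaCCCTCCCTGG
Fbln5: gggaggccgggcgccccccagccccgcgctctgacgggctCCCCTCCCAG
Lama2: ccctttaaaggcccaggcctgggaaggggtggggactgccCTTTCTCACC
Lamb1: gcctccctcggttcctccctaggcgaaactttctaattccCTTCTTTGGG
None of the 4 passed in polysomal RNA, where the knockout minus wild-type difference was -0.06 for Col6a1, -0.01 for Fbln5, -0.38 for Lama2 and -0.01 for Lamb1, and none passed the interaction.

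Of the genes that rose in polysomal RNA with a positive interaction, Mmp14 and Postn are shown in the same layout for comparison. Mmp14 lies at chr14:54431558-54431607 and Postn at chr3:54361067-54361116, both on the plus strand.
Mmp14: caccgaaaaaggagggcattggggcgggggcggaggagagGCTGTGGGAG
Postn: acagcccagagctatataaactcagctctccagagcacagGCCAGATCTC
Both begin with GC at the listed start. The letters TATAAA, searched on the strand of the gene within 50 bases before the start, were found in Postn and Adamtsl2 (5.0% of 40 matrix genes, against 3.15% of all genes with a window). A match is only a description of these letters.

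Genes of collagen synthesis and secretion were examined as a separate list of 24 genes, of which 20 were tested. The list and its counts also include Ctsk, the gene of a collagen-degrading protease. In total RNA 8 rose and none fell, in polysomal RNA none rose and 3 fell, and the interaction was negative for 7 and positive for 1. For all genes the shares were 17.2% higher and 5.97% lower in total RNA, 8.36% and 6.77% in polysomal RNA, and 8.06% positive and 14.2% negative in the interaction. The list's median was 0.30 in total and -0.21 in polysomal RNA, against 0.09 and -0.01 over all genes. P4hb, the β subunit of prolyl 4-hydroxylase, rose in total RNA by 0.81 (SE 0.10, limma adjusted p = 0.0010). Serpinh1 (HSP47), the collagen chaperone, rose by 0.73 (SE 0.14, adjusted p = 0.0073), and Mia3 (TANGO1), which loads procollagen into transport carriers, by 1.22 (SE 0.26, adjusted p = 0.011). In polysomal RNA the catalytic prolyl 4-hydroxylase subunits P4ha1 and P4ha2 fell by 1.07 (SE 0.20, adjusted p = 0.0086) and by 0.91 (SE 0.19, adjusted p = 0.012). Ctsk (cathepsin K), a protease that degrades collagen, fell by 1.39 (SE 0.29, adjusted p = 0.014). In wild type 19 of the 20 were higher in polysomal than in total RNA and Sec23a was lower. Over all genes 44.5% were higher and 27.9% lower in that comparison.

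Of 17 tested genes of TGF-beta ligands, receptors and targets, 5 rose and 2 fell in total RNA, and none rose and 4 fell in polysomal RNA. The shares were 29.4% higher and 11.8% lower in total RNA, against 17.2% and 5.97% of all genes, and 23.5% lower in polysomal RNA, against 6.77%. TGF-beta is the main known inducer of matrix genes in fibroblasts. The receptor genes of endothelium Acvrl1 and Eng rose in total RNA by 0.90 (SE 0.10, limma adjusted p = 0.00086) and 0.88 (SE 0.14, adjusted p = 0.0036), and the protease gene Htra1 by 0.57 (SE 0.15, adjusted p = 0.022). Among the genes that fell in polysomal RNA were the targets Thbs1 (thrombospondin-1), by 1.16 (SE 0.14, adjusted p = 0.0017), and Ccn2 (CTGF), by 0.91 (SE 0.20, adjusted p = 0.016). Ccn2 also fell in total RNA, by 0.58 (adjusted p = 0.042).

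Among 13 tested matrix receptors, 3 rose and 1 fell in total RNA, and none rose and 1 fell in polysomal RNA. At 23.1% higher and 7.69% lower in total RNA and 7.69% lower in polysomal RNA, these were near the 17.2%, 5.97% and 6.77% of all genes. The laminin receptor subunits Itga6 and Dag1 (dystroglycan) rose by 1.39 (SE 0.17, limma adjusted p = 0.0010) and 1.07 (SE 0.20, adjusted p = 0.0060), and Itgb1, the common integrin β1 subunit, fell by 0.59 (SE 0.18, adjusted p = 0.039). Sdc1 (syndecan-1) fell by 0.60 on the polysomal arrays (SE 0.11, adjusted p = 0.0063). Of 13 other proteases and inhibitors tested, Mmp11 (0.59, SE 0.16, adjusted p = 0.029) and Mmp15 (0.44, SE 0.12, adjusted p = 0.025) rose and Adamts1 fell by 0.79 (SE 0.22, adjusted p = 0.029) in total RNA, while in polysomal RNA none rose and Mmp23 fell by 0.47 (SE 0.12, adjusted p = 0.028). These counts too, at 15.4% higher and 7.69% lower in total RNA and 7.69% lower in polysomal RNA, were near those of all genes.

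These are bulk lungs, in which fewer cells of a type and less RNA per cell cannot be told apart, so markers of the cells that make matrix were measured beside it. The markers of alveolar type 1 and type 2 cells, the cells that define lung tissue, were bright. In total RNA the type 1 markers averaged 12.57 to 12.71 log2 in wild type and 12.82 to 12.92 in knockout, and 2 of 7 rose. The type 2 markers averaged 12.70 to 13.07 and 13.29 to 13.37, and 3 of 8 rose (37.5%), beside 16 of the 47 matrix genes (34.0%). In total RNA the endothelial markers averaged 9.20 to 9.25 in wild type and 9.73 to 9.91 in knockout, and 7 of 13 rose. The smooth muscle markers averaged 6.80 to 7.17 and 7.67 to 7.85, and 3 of 5 rose. The fibroblast markers averaged 9.58 to 9.65 and 9.83 to 9.85, and 3 of 12 rose. The heart muscle markers averaged 7.43 to 8.11 and 8.15 to 8.87, and 3 of 8 rose. The macrophage markers averaged 9.19 to 9.44 and 9.62 to 9.76, and 4 of 10 rose and 3 fell. The mesothelial markers overlapped, at 8.27 to 8.49 and 8.27 to 8.58, and 1 of 6 fell. Apart from the mesothelial markers, none of these ranges overlapped between genotypes. Nor did the medians of all tested probe sets, at 8.33 to 8.42 in wild-type and 8.47 to 8.51 in knockout total RNA. Over all genes, 17.2% were called higher and 5.97% lower in total RNA. Heart muscle Myh6 and Pln were below the filter, as were 11 of 12 cartilage markers, including Col2a1, Acan and Comp. So were the smooth muscle markers Actg2, Lmod1, Smtn and Hhip, which left 5 of 9 tested. Fibroblast Fgf10 and Gli1, endothelial Ednrb, macrophage Marco and mesothelial Rspo1 and Calb2 were below it too. The part of these markers in the total RNA result was not tested.

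In polysomal RNA the ranges of the endothelial, fibroblast, smooth muscle and heart muscle markers overlapped between genotypes. The endothelial markers averaged 11.35 to 11.43 in wild type and 11.15 to 11.38 in knockout, the fibroblast markers 10.53 and 10.32 to 10.59, the smooth muscle markers 8.85 to 9.02 and 8.66 to 9.17, and the heart muscle markers 9.14 to 9.58 and 9.26 to 10.26. Of the 12 fibroblast markers none rose and 2 fell, of the 5 smooth muscle markers none rose and 1 fell, of the 13 endothelial markers 1 rose and 1 fell, and of the 8 heart muscle markers 1 rose and none fell. Over all genes, 8.36% were called higher and 6.77% lower in polysomal RNA. Other marker lists did not overlap. Nor did the medians of all tested probe sets, at 8.48 to 8.52 in wild type and 8.53 to 8.55 in knockout. The macrophage markers averaged 11.36 to 11.50 in wild type and 10.89 to 11.12 in knockout, and 4 of 10 fell. The mesothelial markers averaged 9.30 to 9.51 and 8.76 to 9.27, and none of 6 passed. The 1 cartilage marker tested, Chad, measured 11.50 to 11.97 and 11.01 to 11.21 and fell. The alveolar type 2 markers averaged 14.21 to 14.23 and 14.17 to 14.20 and the type 1 markers 13.02 to 13.04 and 13.08 to 13.15, and none of either passed. The part of these markers in the polysomal differences of Eln, Col1a1, Col5a2 and Postn was not tested.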

How the data were processed

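Gene expression in mouse lung was measured on 11 one-colour Affymetrix arrays. The deposited values are 1 log2 value per probe set and array, which the authors made with GCRMA (background correction, normalization and probe summary), per the submitters' processing notes. Neither the GCRMA version nor the probe grouping is given in the sources used here. That the scale is log2 was inferred from the range of 0.73 to 16.7. Probe sets carry RefSeq accessions. Of 26180 probe sets, 15228 matched 1 gene in the RefSeq table of GRCm38.p6 and 10952 had no match. There were 7538 rows that repeated another exactly, and each matrix gene had 1 distinct probe set.

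The filter of log2 5 on at least 2 arrays kept 13802 probe sets. Group means were fitted over the 11 arrays with limma's lmFit and eBayes (limma 3.58.1, R 4.3.3), with 7 residual degrees of freedom, and 5 two-sided contrasts. p-values were adjusted by Benjamini-Hochberg over all tested probe sets with a threshold of 0.05. All adjusted p-values come from this fit, which was tested on simulated data. The number of arrays limits the precision.

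The matrix genes, the pathway and marker lists and the tests were chosen with earlier results of these data known. Certain matrix genes were always named. Beyond these, up to 3 genes with the largest difference among those that passed were named per class and contrast, or the 1 with the smallest p, and up to 3 passing genes per pathway list and genotype contrast. Alternatives were other filters, scalings, thresholds, a trend, blocks for the replicate set letter, the compared groups alone, and leaving out each array. Tables and figures used Python 3.11.15 with pandas 2.3.3, numpy 2.4.6 and matplotlib 3.10.9. One gene that the naming rule selected is not reported here.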

Additional observations from a re-analysis of the deposited data

Results flagged for a closer look

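The genotype difference itself differed between polysomal and total RNA for 13 matrix genes by limma's interaction term (Benjamini-Hochberg adjusted p under the threshold). Of the 47 matrix genes tested, 6.38% were called positive and 21.3% negative, against 8.06% and 14.2% of all genes. The positive share was thus below that of all genes. Relative to its total RNA difference, the polysomal difference was higher by 1.28 log2 units for Col5a2, 1.09 for Postn and 0.52 for Mmp14. For Postn the knockout was at -0.20 in total and 0.89 in polysomal RNA. The values were -1.57 for Ltbp4, -1.40 for Fbln1, -1.04 for Mfap4, -0.94 for Lamb2, -0.90 for Col4a2, -0.81 for Col18a1, -0.81 for Fn1, -0.73 for Ltbp2, -0.67 for Dcn and -0.59 for Timp2. For Fbln1, total values lay near the floor of the arrays. Only Ltbp4, Col4a2 and Dcn kept the call whichever array was left out, while Col5a2 and Fn1 each lost it for any of 9 arrays, Mmp14 for any of 8, Mfap4 for any of 7, Fbln1 for any of 5 and Ltbp2 for any of 4.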

How the results depend on the processing

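The matrix calls rested on 2 or 3 arrays a group. Leaving out each array in turn gave 11 to 18 higher and 0 to 1 lower genes in total RNA, 3 to 10 higher and 1 to 4 lower in polysomal RNA, and 0 to 4 positive and 4 to 10 negative interactions. For polysomal minus total RNA it gave 32 to 35 higher and 1 to 3 lower genes in wild type, and 30 to 34 higher and 0 to 0 lower in knockout. Calls kept whichever array was left out were 11 of 17 in total RNA, 3 of 11 in polysomal RNA, 3 of 13 interactions, 31 of 38 in wild type and 30 of 33 in knockout.

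At an adjusted p of 0.01 instead of 0.05, 10 genes were higher and 0 lower in total RNA, 2 higher and 1 lower in polysomal RNA, 0 interactions were positive and 1 negative, and 1 gene was lower in wild-type polysomal RNA than in total RNA. With only the groups compared in the fit, 2 genes were higher and 2 lower in polysomal RNA, and 1, Col4a4, was lower in knockout polysomal than total RNA. With no filter, 5 genes were lower in wild-type polysomal RNA. Without knockout polysomal replicate 1 and wild-type total replicate 3 together, a setting chosen after seeing the data, 25 genes were higher and 3 lower in total RNA, 13 higher in polysomal RNA, and 6 interactions positive. The causes were not tested, beyond the smaller number of arrays in these fits.

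The labels do not explain the set letters. Deviations of same-letter arrays within a kind of RNA correlated at -0.062 to 0.104, so the letters were not taken to pair the arrays. Between kinds of RNA, knockout total replicates 1, 2 and 3 correlated at 0.287, 0.313 and 0.31 with knockout polysomal replicates 3, 1 and 2. Only the last of these pairs shared a letter. The other knockout pairs lay between -0.227 and -0.057. In wild type, pairs of a total and a polysomal array ran from -0.22 to 0.22. Whether total and polysomal arrays share lungs was not tested, and the fit treats all arrays as independent. With the letter as a replicate block within each kind of RNA, 20 genes were higher and 2 lower in total RNA, 11 higher and 3 lower in polysomal RNA, and 5 interactions positive and 6 negative. In this block knockout polysomal replicate 1, the only polysomal array of its letter, does not enter the polysomal genotype difference. As a random block (correlation 0.031) the letter moved no count by over 1.5 times. Within set letters, all 17 total and all 11 polysomal calls had the same sign in both sets. The calls were made on these same arrays, so this agreement was largely built in and is no separate evidence.

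The total RNA difference of Timp3, not called, turned to 0.01 under that block and ranged from -0.29 (without wild-type total replicate 3) to 0.04 (without wild-type total replicate 2). The interaction of Fbn1, not called, turned to -0.07 without wild-type polysomal replicate 2 and to -0.03 without knockout polysomal replicate 3, and ranged from -0.13 (without knockout polysomal replicate 2) to 0.32 (without knockout polysomal replicate 1). The remaining scalings, filters and fits moved no count by over 1.5 times, and taking the median over distinct probe sets changed nothing, since each matrix gene had 1. The interaction was not run on the groups compared alone, since it uses all 4.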
